A study of Rattus norvegicus with 4 samples.

Results

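L5/6 near-projecting (NP) neurons are a small group of glutamatergic cells of the deep cortex, and 315 of the 46633 barcodes from rat orbitofrontal cortex (0.675%) were assigned to them. The nuclei were chosen by marker UMIs (unique molecular identifiers, each counting 1 captured transcript). A barcode needed at least 500 genes, at most 5% mitochondrial UMIs, at least 3 UMIs of Slc17a7 and Camk2a together and at most 1 of Gad1 and Gad2. It also needed at least 3 UMIs of Trabd2b, Vwc2l and Htr4 together, and more than 2 times the UMIs of each of 5 other panels of 3 genes. The same rule with the other panels gave 3655 L2/3 and 3584 L4/5 intratelencephalic (IT), 711 L5 extratelencephalic (ET), 1644 L6 corticothalamic (CT) and 1224 L6 IT nuclei. The NP nuclei were 1.71% of the 18407 barcodes past the excitatory gate.

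Excitatory neurons of the neocortex are commonly sorted by where their axons go. IT cells project to other cortex and striatum, ET cells send axons out of the forebrain, CT cells reach the thalamus, and NP cells, at the border of layers 5 and 6, have mostly local axons and lack the long-range projections of their neighbours. NP cells are known from transcriptomic surveys by genes such as Tshz2, Htr2c, Fezf2 and Adamts18, and share part of their transcription factor code with the other deep non-IT classes.

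All animals were male Sprague-Dawley rats aged 8 weeks and labelled wild-type. One group was injected intraperitoneally with 1 mg/kg of METH (methamphetamine, which drives monoamine release) for 7 days, the other with saline. Orbitofrontal cortex of 4 rats per group was taken and nuclei were sequenced with droplet-based 3′ chemistry, giving 2 libraries per group. The labels do not tie rats to libraries. P-values between METH and saline therefore reflect only how far libraries spread, part of which may be technical. Where classes are set against each other, p-values reflect how far the class differences vary over the same 4 libraries.

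Saline replicate 1 stood apart. It held the most barcodes (18958, against 8467 to 10275 in the others) and the fewest UMIs per gated excitatory nucleus, with a median of 3236 against 5788 to 6906. The NP nuclei numbered 93 and 63 in METH (replicates 1 and 2) and 64 and 95 in saline (replicates 1 and 2), an order kept wherever 4 values follow. Their summed UMIs were 530251, 365973, 233924 and 575039, with medians of 4857, 5211, 3123.5 and 5754 UMIs per nucleus. Pairs of libraries shared between 23 and 69 barcodes, and none of these was an NP nucleus. Values are therefore given library by library.

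The 3 panel genes, which chose the nuclei, are described here with no test. Vwc2l, which encodes a secreted protein of the chordin-like family, was the most abundant in the summed NP nuclei, in counts per 1000000 UMIs (CPM), at 1397, 1514, 1120 and 1628 CPM. Trabd2b, a membrane metalloprotease that acts on Wnt proteins, stood at 756, 634, 359 and 920 CPM. Htr4, a Gs-coupled serotonin receptor, stood at 456, 506, 222 and 534 CPM. Saline replicate 1 was the lowest library for all 3. Outside NP nuclei the next highest levels were 154 to 287 CPM of Trabd2b in L6 CT nuclei and 132 to 147 CPM of Vwc2l in L4/5 IT nuclei, while Htr4 reached at most 16.9 CPM in any other class and library.

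**Figure D1:**
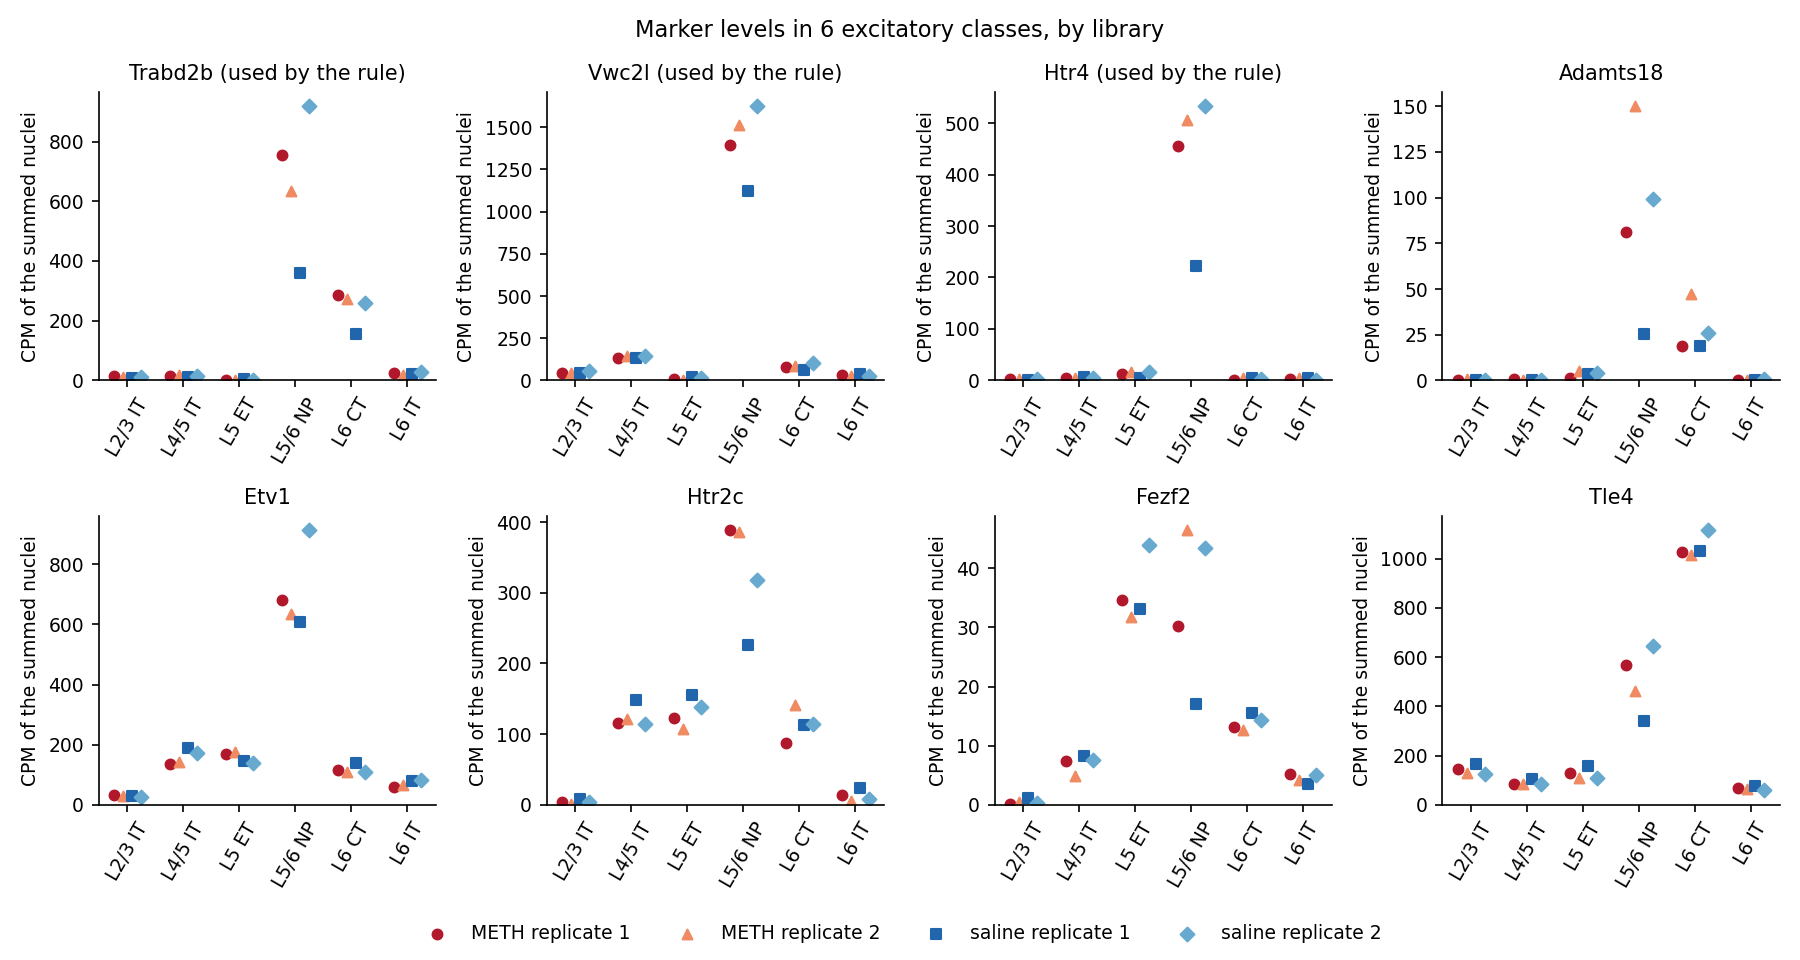
Levels in CPM (linear axes from 0) of the 3 genes that chose the NP nuclei and of 5 NP markers that did not, in the summed nuclei of 6 excitatory classes, 1 point per library. Adamts18, Etv1 and Htr2c are highest in NP nuclei in every library, Fezf2 is shared with L5 ET nuclei and Tle4 is highest in L6 CT nuclei.

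The nuclei varied in how many panel UMIs they carried. Medians were 13, 13, 4.5 and 16 panel UMIs per nucleus, with maxima of 43, 70, 20 and 59. All 3 genes were detected together in 55 of 93, 37 of 63, 19 of 64 and 70 of 95 nuclei, and 10, 10, 20 and 8 nuclei had UMIs of 1 of the genes only. Thus saline replicate 1 held fewer nuclei with the whole panel. At the threshold of exactly 3 panel UMIs stood 7, 5, 23 and 4 nuclei, and just outside it, at 2 UMIs with the other conditions met, 2, 2, 11 and 1. None of the 39 nuclei at 3 UMIs had an Adamts18 UMI, and 1 of the 16 nuclei at 2 UMIs had one. Another 260 gated nuclei had at least 3 panel UMIs but too many of another panel, and 42 of these had an Adamts18 UMI.

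**Figure D2:**
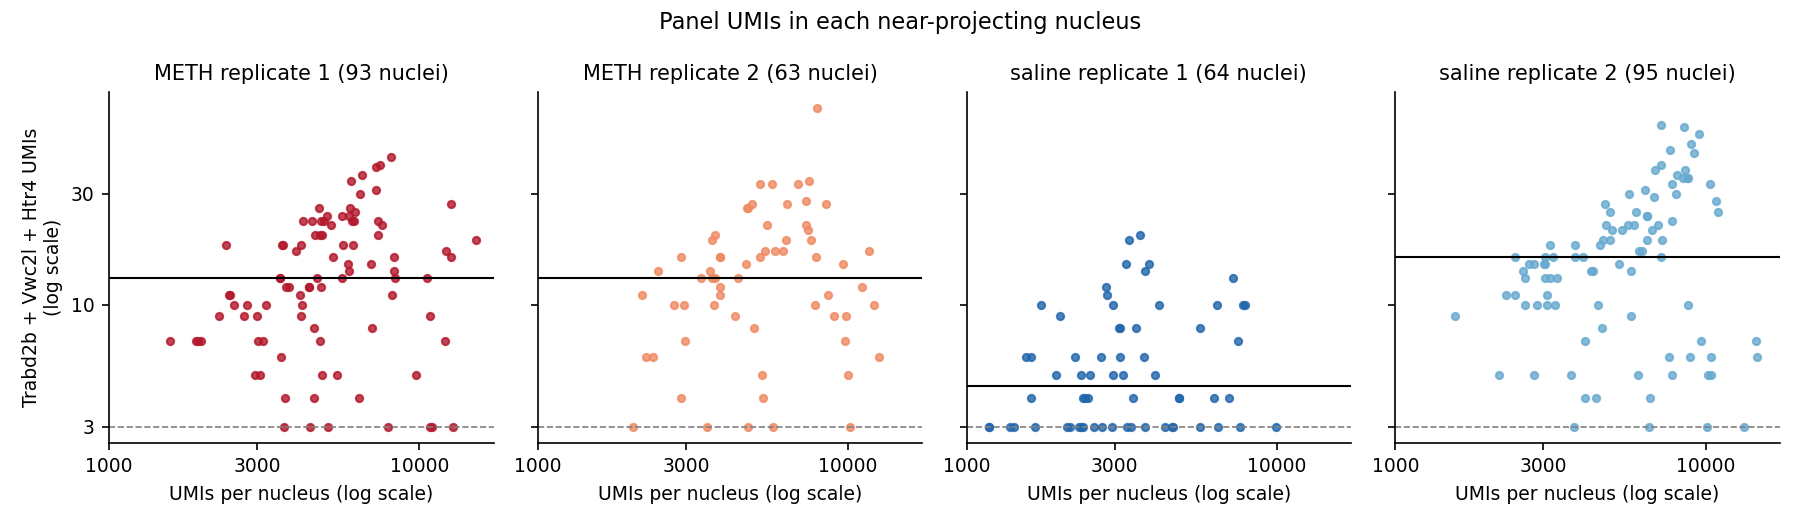
Summed UMIs of Trabd2b, Vwc2l and Htr4 against all UMIs in each NP nucleus, 1 panel per library, both axes on a log scale. The dashed line marks the threshold of 3 and the solid line the median, which is 4.5 in saline replicate 1 and 13 to 16 in the others.

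The label was set beside 14 NP markers that were not among the genes of the rule. This list was chosen with earlier results of these data known, so it is no independent check of the label. Adamts18, a secreted metalloprotease, was at 81.1, 150, 25.6 and 99.1 CPM in NP nuclei. Its next highest class was L6 CT at 18.7 to 47.5 CPM, and in L6 IT nuclei it reached at most 0.635 CPM. NP nuclei were the highest class in 4 of 4 libraries, and the difference from L6 CT was 1.68 on the log2 scale (edgeR quasi-likelihood test, adjusted p = 1.37e-11). An Adamts18 UMI was seen in 80 of 315 NP, 175 of 1644 L6 CT and 2 of 1224 L6 IT nuclei, although the L6 IT nuclei were deeper, with medians of 4028.5 to 8014.5 UMIs. Among 25496 barcodes outside the excitatory gate, which include glia and interneurons, 304 had one, at medians of 1307 to 1705 UMIs. Within NP nuclei with at least 5 panel UMIs, Adamts18 was at 93.5, 160, 50.6 and 108 CPM, so saline replicate 1 remained lowest there.

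Of the 14 markers, 11 passed the filter on low counts. In NP nuclei 8 of these were higher than the mean of the 5 other classes, against 9.54% of all genes tested. Etv1, a transcription factor of layer 5, was at 681, 634, 607 and 915 CPM against at most 190 CPM elsewhere (log2 fold change 2.91, SE 0.125, adjusted p = 7.92e-12). Htr2c, a Gq-coupled serotonin receptor, was at 388, 385, 227 and 318 CPM against at most 155 CPM elsewhere (log2 fold change 3.04, SE 0.226). Tshz2, a zinc-finger transcription factor, was low in every NP sum, at 17.0, 27.3, 8.55 and 17.4 CPM, and was listed at 0 in all libraries of the L5 ET, L6 CT and L6 IT classes, so no fold is given. Lypd1, a modulator of nicotinic receptors, and Cpne7, a calcium-dependent phospholipid-binding protein, were also highest in NP nuclei in 4 of 4 libraries, at 29.9 to 49.2 and 30.1 to 74.8 CPM. Other markers were shared with another class or lower. Fezf2, which specifies subcortically projecting neurons, was at 17.1 to 46.5 CPM in NP and 31.7 to 43.9 CPM in L5 ET nuclei (log2 difference -0.13, adjusted p = 0.743). Tle4, a corepressor of layer 6, was higher than the mean of the 5 (log2 1.63) but lower than in L6 CT nuclei (log2 -1.05, adjusted p = 5.83e-06). Crym, a thyroid hormone-binding protein, was lower than in each of the 5 classes, at 5.22 to 27.3 CPM (log2 fold change -1.19, SE 0.237). Sla2 and Itga8 were not called.

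The remaining 3 markers were too low to test. Trhr, the receptor of thyrotropin-releasing hormone, had 11 UMIs in 8 of the 315 nuclei (6.45 CPM pooled, none in saline replicate 1), against at most 0.884 CPM pooled in another class and 4.61 CPM outside the gate. Trh, the thyrotropin-releasing hormone gene, and Slc17a8, the vesicular glutamate transporter VGLUT3, had no count among 1705187 NP UMIs, which allows up to 1.76 CPM. This limit covers counting error only. Markers of layer 6b, chosen after the first results were seen, were low. Nxph4 had no count and Cplx3 had 1 count in all. Ccn2 stood at 1.89, 5.46, 4.27 and 12.2 CPM, from 1 to 7 UMIs per library, above the 1.43 CPM that was the highest value in any other class.

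Markers of glia and vessels were lower in NP nuclei than outside the excitatory gate. Oligodendrocyte markers summed to 136 to 341 CPM, against 1051 to 3352 CPM outside the excitatory gate, and between 0 and 3 of the 10 genes were at 0. METH replicate 1 held the 341 CPM, above the 326 CPM that was the highest value in any other class. The 9 astrocyte markers summed to 348 to 538 CPM against 1588 to 3333 CPM. Microglial markers summed to 137 to 243 CPM against 318 to 968 CPM, with 2 to 8 of 15 genes at 0. Here too METH replicate 1, at 243 CPM, was above the highest value in any other class, 218 CPM. The 10 interneuron markers summed to 181, 459, 423 and 224 CPM, so METH replicate 2 and saline replicate 1 were above the 291 CPM that was the highest value in any other class, against 1737 to 3001 CPM outside the gate. The 9 endothelial, mural and fibroblast markers summed to 11.3, 41.0, 21.4 and 3.48 CPM, with 4 to 8 at 0. They reached at most 18.3 CPM in another class and stood at 55.3 to 190 CPM outside the gate. The 6 precursor markers summed to 30.1 to 45.2 CPM. Their part in the results below was not tested.

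Summed counts of NP nuclei were then compared with those of the 5 other classes, with the library as a block, for 11462 genes outside the rule. Since the 22 rule genes sorted the nuclei, these counts describe the sorted class and are no independent sign that it is a cell type. In edgeR's quasi-likelihood test 1094 genes (9.54%) were higher in NP nuclei than the mean of the 5 classes and 1119 (9.76%) were lower. Higher than in each of the 5 classes were 269 genes (2.35%), of which 186 were at least 2-fold and 104 at least 4-fold above the mean, and 187 (1.63%) were lower than in each. NP nuclei were the highest class in all 4 libraries for 215 of the 269. Without saline replicate 2, the deepest NP library, 164 genes were higher than in each class. Against single classes the counts higher and lower were 1104 and 1139 for L6 CT, 1172 and 1387 for L4/5 IT, 1192 and 1426 for L6 IT, 1220 and 1373 for L5 ET, and 1607 and 1797 for L2/3 IT.

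The 20 named genes with the largest excess in NP nuclei are given by what they encode. Lama4, a laminin alpha chain, was at 473, 454, 261 and 586 CPM, while no other class exceeded 41.1 CPM in any library (log2 fold change 4.62, SE 0.197, adjusted p = 9.57e-12). Col24a1, a fibrillar collagen, was at 241, 153, 76.9 and 268 CPM against at most 16.2 CPM (log2 5.57, SE 0.239). Hmcn1, a hemicentin, and Hapln1, the link protein of perineuronal nets, stood at 47.0 to 92.4 and 29.9 to 41.7 CPM in NP nuclei and at most 21.4 and 3.32 CPM elsewhere. Itgb3, an integrin beta subunit, was at 17.1 to 58.5 CPM against at most 15.5 CPM. All 5 were highest in NP nuclei in 4 of 4 libraries, and saline replicate 1 held the lowest NP level of each.

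Chrdl1, which encodes a secreted antagonist of bone morphogenetic proteins, was at 92.4, 54.6, 55.6 and 122 CPM against at most 4.96 CPM (log2 fold change 5.74, SE 0.265, adjusted p = 2.78e-24). Sema5b, a transmembrane semaphorin that guides axons, was at 121, 117, 81.2 and 120 CPM against at most 20.1 CPM (log2 4.80, SE 0.191). Prlr, the prolactin receptor, was at 71.7, 62.8, 64.1 and 90.4 CPM against at most 8.73 CPM (log2 4.48, SE 0.226). These 3 genes did not overlap between NP and any other class, and neither did others picked by fold, such as Lama4, Col24a1 and Kcnip1. Elfn1, a postsynaptic adhesion protein that recruits presynaptic glutamate receptors, stood at 47.1 to 76.5 CPM against at most 11.6 CPM.

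Kcnip1, a calcium-binding subunit of A-type potassium channels, was at 443, 391, 158 and 461 CPM against at most 30.1 CPM (log2 fold change 4.89, SE 0.291, adjusted p = 9.26e-10). Prkcq, protein kinase C theta, was at 98.1, 76.5, 64.1 and 123 CPM against at most 13.4 CPM. Among nuclear proteins, Tox2, an HMG-box factor, was even across libraries at 115, 112, 94.0 and 103 CPM. It was shared with L5 ET nuclei at 54.5 to 72.4 CPM, from which it differed by 0.64 on the log2 scale (adjusted p = 3.27e-04). Hmga2, an architectural chromatin protein best known from embryonic cells, was at 12.8 to 55.6 CPM against at most 2.65 CPM. Ddx43, an RNA helicase, had a close second class in L4/5 IT nuclei (4.59 to 16.8 CPM against 12.8 to 47.0 CPM), and its fold over the mean is not given because L5 ET nuclei held no count.

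Skint10, Rab38, a small GTPase of lysosome-related organelles, Cyb5rl, Sh3tc2, and the markers Adamts18 and Lypd1 completed the 20 genes. Rab38 stood at 8.55 to 39.6 CPM and Sh3tc2 at 16.4 to 45.3 CPM in NP nuclei. Sh3tc2 was close to L4/5 IT nuclei, from which it differed by 0.91 on the log2 scale (adjusted p = 0.00455).

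**Figure D3:**
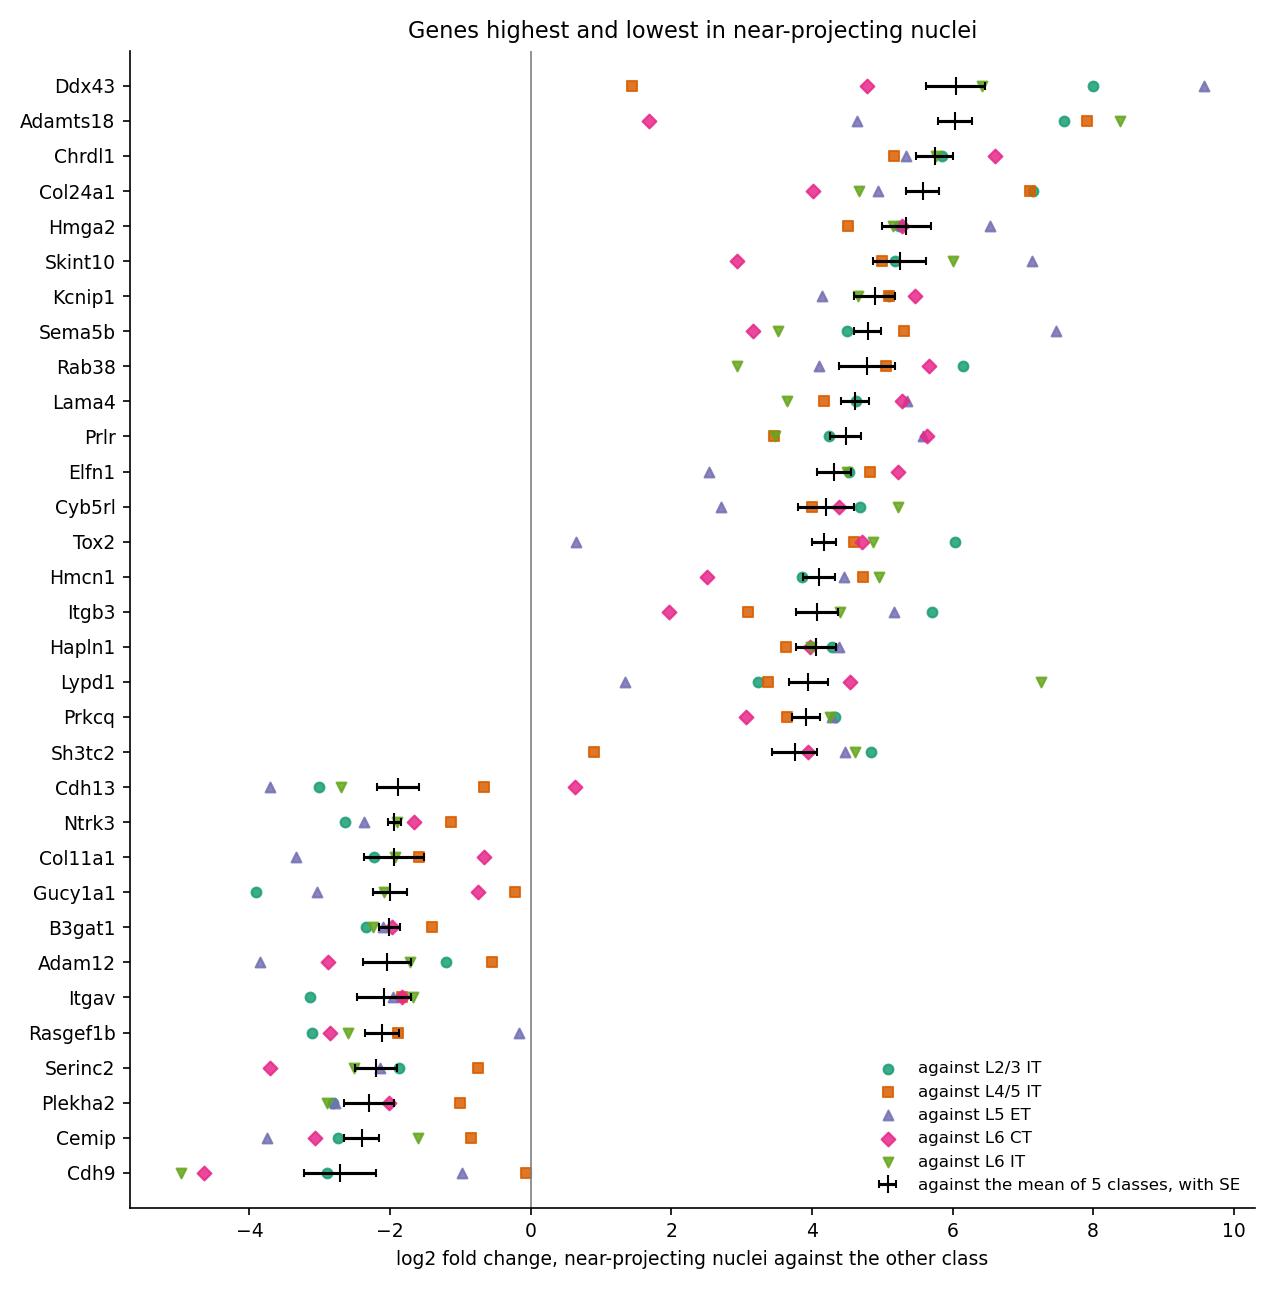
Fitted log2 fold change of NP nuclei against each of 5 excitatory classes (coloured symbols) and against their mean (black, bars show the SE) for the 20 highest and 12 lowest named genes. The 20 highest genes were picked among those higher than in each class, so their points lie above 0 by selection, which is no separate result. Near classes were seen for Tox2, Sh3tc2, Adamts18 and Lypd1, while Cdh13 lies above L6 CT nuclei.

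The 12 genes lowest in NP nuclei are given next. Cdh9, a classical cadherin, was at 41.5, 8.20, 25.6 and 5.22 CPM, against 560 to 596 CPM in L6 IT nuclei (log2 fold change to the mean of the 5 of -2.71, SE 0.509, adjusted p = 8.08e-04). It did not differ from L4/5 IT nuclei (log2 -0.06, adjusted p = 0.972). Ntrk3, the receptor of neurotrophin 3, was lower than in each of the 5 classes, at 251, 219, 453 and 254 CPM against 530 to 1645 CPM in the others (log2 -1.94, SE 0.0938, adjusted p = 1.32e-16). Cemip, which degrades hyaluronan, and Itgav, an integrin alpha subunit, were also lower than in each class, at 8.70 to 29.9 and 10.9 to 42.7 CPM. B3gat1, the enzyme that makes the HNK-1 carbohydrate epitope, was at 37.7, 38.3, 68.4 and 20.9 CPM against at most 177 CPM in L2/3 IT nuclei (log2 -2.01, SE 0.153). The other 7 were Cdh13, Col11a1, Gucy1a1, Adam12, Rasgef1b, Serinc2 and Plekha2. Saline replicate 1 had the highest NP level of the 4 libraries for 10 of these 12 genes, all but Cdh9 and Plekha2, and the lowest for 15 of the 20 highest genes.

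Gene lists were read against a median of -0.0062 on the log2 scale over all genes tested and the shares called of 9.54% and 9.76%, with no test of any list. Of 58 axon guidance and adhesion genes, 19 were higher and 24 lower than the mean of the 5 classes. Pcdh19, a protocadherin, was at 107 to 132 CPM against at most 75.2 CPM (log2 1.83, SE 0.129), and Cdh11 and Cdh18 were higher than the mean but lower than in L6 CT nuclei, at 1090 to 1501 CPM against 1349 to 1452 CPM for Cdh11 (log2 -0.17, adjusted p = 0.0377 in edgeR). Of 24 Wnt, R-spondin and bone morphogenetic protein genes, 7 were higher and 4 lower. Kremen1, a Dickkopf receptor, was at 62.2, 35.5, 55.6 and 67.8 CPM against at most 29.9 CPM (log2 2.66, SE 0.216). Of 10 ADAMTS protease genes, 3 were higher (Adamts18, Adamts19 and Adamts9) and 2 lower, among them Adamts6. Adamts9 lost its call without METH replicate 1, METH replicate 2 or saline replicate 1.

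Among potassium channel genes, 9 of 36 were higher and 14 lower. Kcnt2, a sodium-activated channel, was at 1624, 1689, 1535 and 2118 CPM against at most 1077 CPM (log2 1.15, SE 0.0567, adjusted p = 4.40e-17). Kcnq3, an M-current subunit, was higher than the mean (log2 0.63, SE 0.0389), at 1962 to 2316 CPM against 1909 to 2158 CPM in L4/5 IT nuclei. Kcnma1, the large-conductance calcium-activated channel, was lower than in each class at 1833, 1454, 2125 and 1529 CPM (log2 -0.86, SE 0.0520). Of 27 sodium, calcium and HCN channel genes, 3 were higher and 7 lower. Cacng3, an auxiliary subunit of AMPA receptors, was lower than in each class at 144 to 222 CPM (log2 -1.15, SE 0.0920), as was Cacna1e, the R-type calcium channel, at 271 to 409 CPM (log2 -0.99, SE 0.0701).

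Glutamate receptor genes split evenly, with 9 of 22 higher and 9 lower. The AMPA subunit Gria4 was higher (log2 0.96, SE 0.0561) and Gria3 lower than in each class (log2 -0.87, SE 0.0534), at 856 to 1329 CPM. Grin2b, an NMDA subunit, was also lower than in each class, at 1909, 1711, 1911 and 1763 CPM (log2 -0.51, SE 0.0422). Of 14 GABA receptor genes, 2 were higher and 8 lower, with a median of -0.35. Gabrb1 was higher (log2 0.73, SE 0.0434), while Gabra2 was lower at 83.5 to 124 CPM (log2 -1.08, SE 0.104). Synaptic scaffold and adhesion genes were lower in 10 of 23 cases and higher in 2. Nrxn3, a presynaptic adhesion protein, was lower than in each class in 4 of 4 libraries, at 3447, 4028, 5596 and 2998 CPM against 8342 to 13934 CPM (log2 -1.47, SE 0.0940, adjusted p = 5.22e-11).

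The receptor genes Chrna5 and Hcrtr2 were also high in L6 CT nuclei. Chrna5, a nicotinic subunit of deep layers, was at 157, 150, 72.7 and 167 CPM, higher than the mean of the 5 (log2 3.45, SE 0.150) but below L6 CT nuclei at 155 to 196 CPM (log2 -0.34, adjusted p = 0.0275). Hcrtr2, an orexin receptor, was at 38.5 to 104 CPM against 120 to 229 CPM in L6 CT nuclei (log2 -1.31, adjusted p = 5.42e-04). Both were at most 14.2 CPM in the remaining 4 classes. Of 11 acetylcholine receptor genes 3 were higher and 2 lower, and of 17 neuropeptide receptor genes 3 and 2. Chrm2, an inhibitory muscarinic receptor, was at 15.1, 16.4, 0 and 19.1 CPM. Drd2, the D2 dopamine receptor, was at 22.6, 5.46, 0 and 27.8 CPM in NP and 13.7 to 29.3 CPM in L6 IT nuclei, and at most 1.95 CPM in the remaining 4 classes. Of 8 neuropeptide genes 3 were higher, namely Tac1 (8.20 to 27.8 CPM), Grp (8.20 to 34.2 CPM) and Vip (20.9 to 38.5 CPM), each at low levels. Vip is also an interneuron marker, as are Erbb4 and Adarb2, the other 2 called among 6 tested. Erbb4 was at 32.1, 210, 171 and 76.5 CPM, high in the libraries where the summed interneuron markers, which include it, were high. Its call was lost without METH replicate 2, without saline replicate 1 and at 5 or more panel UMIs. Adarb2 lost its call without METH replicate 2 and at 5 or more panel UMIs.

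Of 21 activity-induced genes 5 were lower in NP nuclei, none was higher and 16 were not called, with a median of -0.64. The call of Nr4a1 was lost without METH replicate 1, without saline replicate 2 and without doublets. Homer1, a postsynaptic scaffold with an activity-induced short form, was at 820, 544, 1103 and 941 CPM (log2 -0.91, SE 0.161, adjusted p = 4.62e-04). Bdnf, a neurotrophin induced by activity, was at 11.3, 10.9, 38.5 and 29.6 CPM against 77.8 to 91.1 CPM in L6 IT nuclei (log2 -1.21, SE 0.386), a call lost without METH replicate 1, METH replicate 2 or saline replicate 1. Neurotrophin system genes were lower in 5 of 9 cases, and glucocorticoid response genes in 4 of 11. Mitochondrially encoded genes went the other way, with 8 of 12 higher, none lower and a median of 0.72. Mt-nd1, a complex I subunit, was at 123, 49.2, 103 and 83.5 CPM and the highest class in 4 of 4 libraries (log2 0.94, SE 0.143, adjusted p = 2.57e-07). In nuclei such transcripts come from outside the nucleus, and they were at a median of 0.0461% to 0.0830% of UMIs per NP nucleus, against 0.0341% to 0.0509% over all gated nuclei. The part of this carry-over in the difference was not tested.

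**Figure D4:**
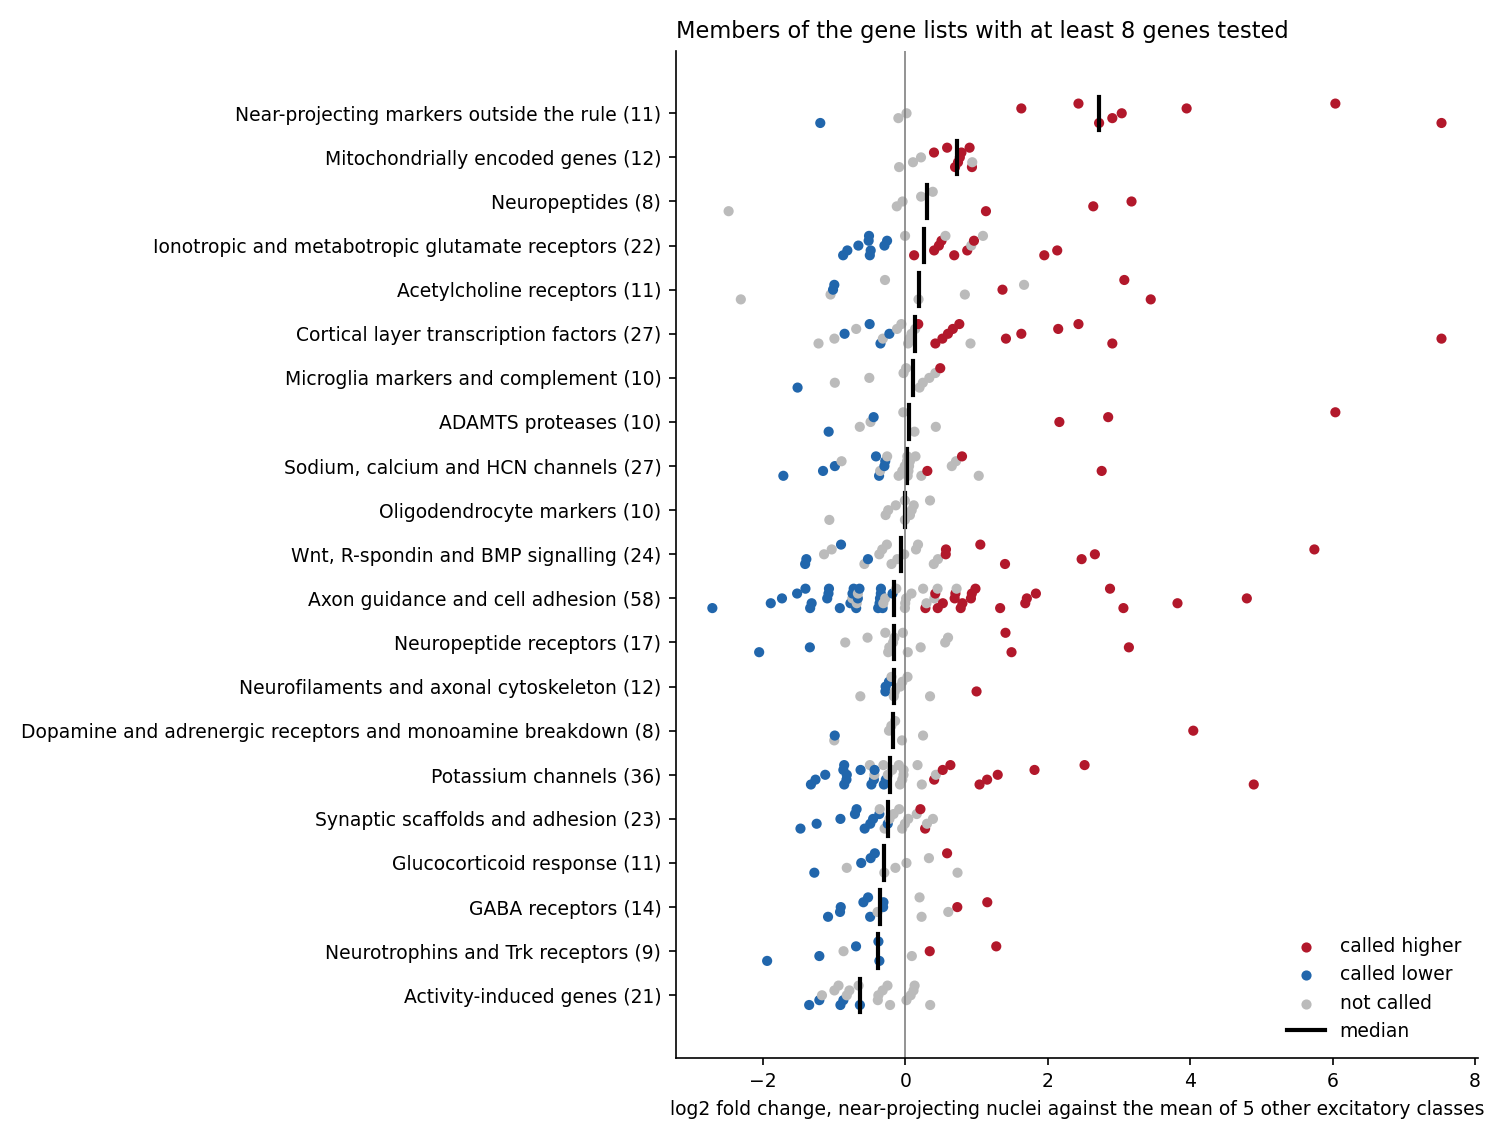
Fitted log2 fold change of NP nuclei against the mean of 5 classes for each member of the lists with at least 8 genes tested (the number in brackets), with rule genes left out. Red and blue points were called higher and lower, grey points were not called, and black bars are medians, from -0.64 for activity-induced genes to 0.72 for mitochondrially encoded genes and 2.72 for NP markers.

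The first question of the METH comparison is whether the share of NP nuclei differed. Of gated excitatory nuclei, NP nuclei made up 2.27% (95% exact binomial interval by Clopper-Pearson, 1.83 to 2.77) and 1.88% (1.45 to 2.40) in METH, and 0.882% (0.680 to 1.12) and 2.57% (2.08 to 3.13) in saline. The means were 2.08% ± 0.269 (SD, n = 2) and 1.72% ± 1.19 (SD, n = 2), with saline on both sides of METH (difference 0.351 percentage points, exact two-sided permutation p = 1, where 2 libraries against 2 allow no p below 0.333). Without saline replicate 1 the difference was -0.491 points, and without saline replicate 2 it was 1.19 points. With every nucleus thinned to 2301 UMIs, which left out 148, 70, 1814 and 53 shallower nuclei, the shares were 1.14%, 1.20%, 0.721% and 1.16%. The intervals cover counting error only.

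No gene was called between METH and saline in the summed NP nuclei, of 6650 tested (0% higher and 0% lower at an adjusted p under 0.05 in edgeR's quasi-likelihood test). At an unadjusted p under 0.05 there were 192 genes, 95 higher and 97 lower in METH, and DESeq2 called 0, with 9 at an unadjusted p under 0.05. The 2 groups did not overlap for 1984 genes (29.8%). Genes below are therefore given as values.

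Cst3, which encodes the secreted protease inhibitor cystatin C, had the smallest p. It was at 166, 183, 51.3 and 85.2 CPM, with no overlap between groups (log2 difference 1.22, SE 0.257, adjusted p = 1 in edgeR). Its adjusted p ranged from 0.00465 to 1 over the alternatives, with a log2 difference of 1.01 to 1.71 in all of them. Both METH libraries were also above both saline ones in each of the 5 other classes, for example at 150, 129, 66.3 and 75.3 CPM in L2/3 IT nuclei, and the METH effect in NP nuclei differed from that in the other classes by 0.29 (SE 0.230, adjusted p = 0.928). Cst3 is abundant in astrocytes and microglia. The 8 other astrocyte markers summed to 372, 344, 406 and 263 CPM in NP nuclei, so the groups overlapped and saline replicate 1 was the highest. The 15 microglial markers summed to 243, 161, 137 and 137 CPM, with both METH libraries above both saline ones. The part of glial RNA in the Cst3 difference was not tested.

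The other 7 genes with the smallest p among those higher in METH were Frmd5, Lancl2, Ppp2r2c, Lars2, Snrnp35, Acer3 and Rmc1. Frmd5, a FERM-domain protein, was at 73.6, 107, 34.2 and 43.5 CPM. Acer3, an alkaline ceramidase, was at 113, 112, 47.0 and 71.3 CPM. Lars2, the mitochondrial leucyl-tRNA synthetase, was at 52.8, 46.5, 21.4 and 20.9 CPM. Counts behind these are small, from 5 to 28 UMIs per library for Lars2. The 8 with the smallest p among those lower were Mt-co1, Nexmif, Slc44a5, Homer1, Col14a1, Ccz1b, Sema3c and Npc1. Mt-co1, a complex IV subunit, was at 126, 112, 209 and 186 CPM (log2 -0.72, SE 0.218). Npc1, a lysosomal cholesterol transporter, was at 20.7, 19.1, 42.7 and 48.7 CPM. All 16 had an adjusted p of 1.

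**Figure D5:**
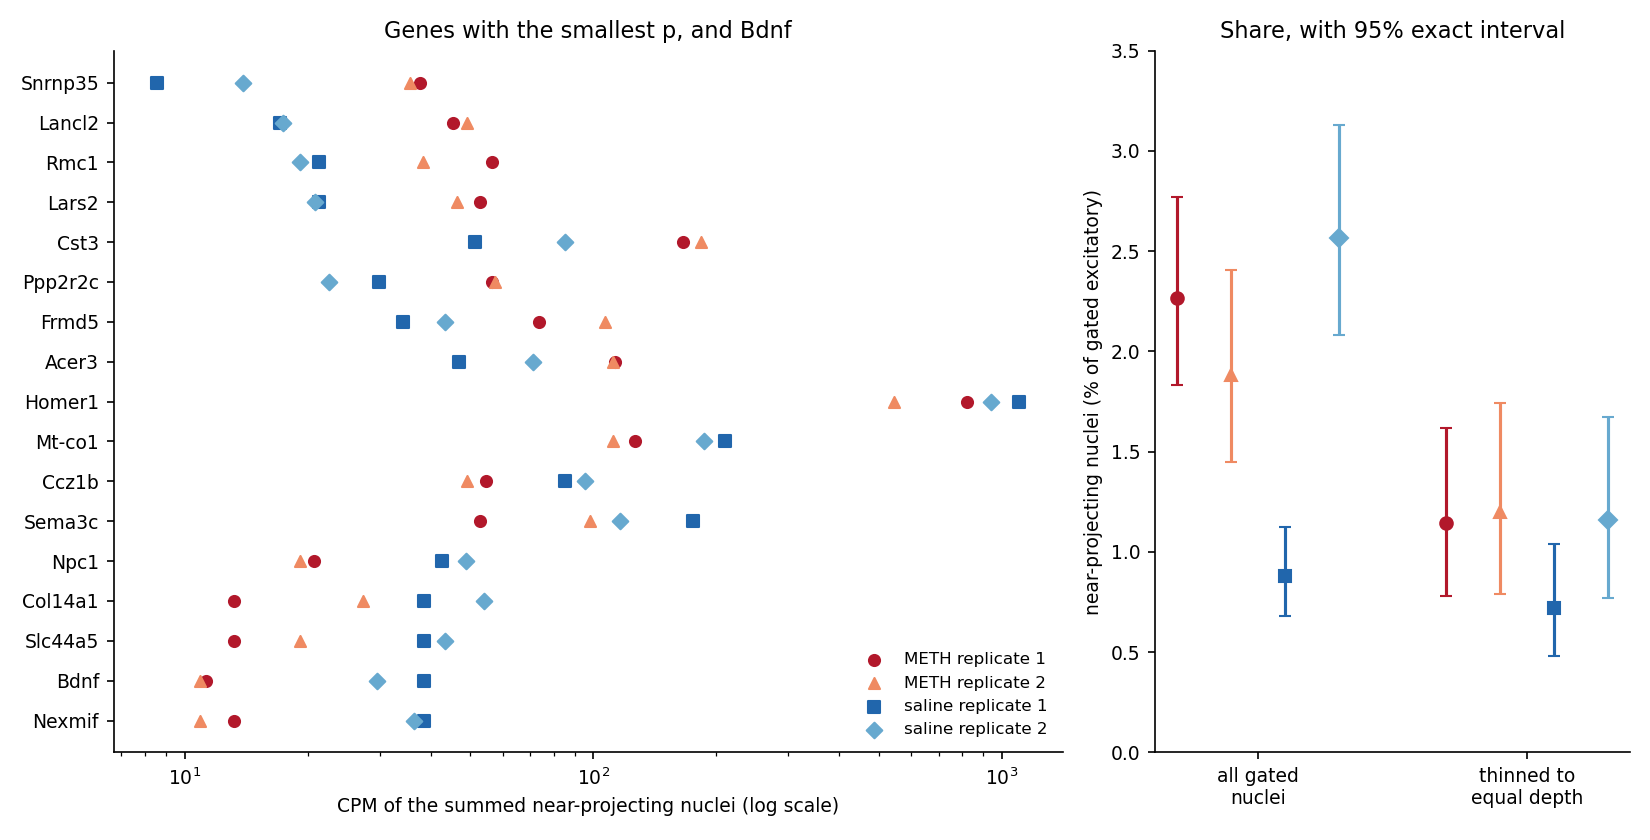
Left, CPM in the summed NP nuclei (log axis) of each library for the 16 genes with the smallest p between METH and saline and for Bdnf. Right, NP nuclei as a percentage of gated excitatory nuclei with 95% exact intervals, before and after thinning to equal depth. METH points lie on 1 side of saline points for all 17 genes, none of which was called. Bdnf passed the filter on low counts through its saline libraries only, which favours such a separation. The 16 genes were picked by p from this same comparison, so their separation is no separate result. Of all genes tested, 29.8% did not overlap.

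Activity-induced genes were also looked at in this comparison, since 5 of them could be tested. All 5 had negative log2 differences, 3 without overlap (against 29.8% of all genes), and the median was -0.46 against -9.2e-04 over all genes. Homer1 stood at 820, 544, 1103 and 941 CPM (log2 -0.59, SE 0.193, adjusted p = 1). Bdnf stood at 11.3, 10.9, 38.5 and 29.6 CPM (log2 -1.54, SE 0.550, adjusted p = 1), from 6, 4, 9 and 17 UMIs. Bdnf passed the filter on low counts through its saline libraries only, which favours a negative difference. Its sign and lack of overlap therefore add nothing to the counts above. Nr4a1, an immediate early nuclear receptor, was at 33.9, 57.4, 59.8 and 36.5 CPM (log2 -0.025), with the groups overlapping, and its difference was positive in 5 alternatives, up to 0.44. Fos, Arc, Npas4 and Fkbp5 had between 1 and 10 UMIs in each NP sum and did not pass the filter, and neither did the dopamine receptors Drd1 (0 to 2 UMIs) and Drd5 (0 UMIs).

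In the other classes the Homer1 values of the 2 groups were arranged otherwise, for example 2721, 1620, 1379 and 1687 CPM in L6 CT nuclei. The METH effect in NP nuclei less that in the 5 other classes was -0.93 (SE 0.241, adjusted p = 0.586 in edgeR), and it was called by DESeq2 (adjusted p = 1.35e-04) and by edgeR without robust estimation (adjusted p = 0.0185). Over all 11482 genes tested for such a difference, 0 (0%) were called, with 721 at an unadjusted p under 0.05, and DESeq2 called 1, which was Homer1. This term shares its NP libraries with the comparison above.

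Of the panel genes and NP markers, none was called between METH and saline. Htr2c stood at 388, 385, 227 and 318 CPM (log2 0.45, SE 0.191, adjusted p = 1), without overlap. Crym, at 26.4, 27.3, 17.1 and 5.22 CPM from 3 to 14 UMIs, did not overlap either. Crym passed the filter on low counts through its METH libraries only, which favours such a separation. Htr2c and Crym were 2 of the 10 NP markers outside the rule that were tested, against 29.8% of all genes without overlap. For Trabd2b, Vwc2l, Htr4, Fezf2 and Tle4 the groups overlapped. Without saline replicate 2, so against saline replicate 1 alone, which is then assumed to vary like METH, 43 genes were called, 15 higher and 28 lower. Adamts18 (log2 2.06) and Kcnip1 (log2 1.36), named after their values were seen, were among them. The panel genes Trabd2b and Htr4, which chose the nuclei, differed by 0.92 and 1.07 there. Without saline replicate 1 they differed by -0.41 and -0.17. Without saline replicate 1, 14 genes were called, 12 higher and 2 lower, and Adamts18 differed by 0.15 and Kcnip1 by -0.15.

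Other lists held values without calls. Of 28 potassium channel genes 14 were higher and 14 lower in METH. Kcnc2, a fast delayed rectifier, was at 240, 142, 141 and 92.2 CPM, and Kcnk10, a two-pore channel, at 39.6, 38.3, 55.6 and 73.0 CPM. Of 21 glutamate receptor genes 15 were lower, 4 of them without overlap, against 29.8% of all genes. Among 7 neurotrophin system genes 5 were lower, including Bdnf, which passed the filter on low counts through saline only. Ntrk3 was at 251, 219, 453 and 254 CPM. Of 8 mitochondrially encoded genes 3 were higher and 5 lower. The 3 oligodendrocyte markers tested were all higher in METH, with groups overlapping, for example at 147, 92.9, 103 and 71.3 CPM for Mbp, a myelin gene.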

How the data were processed

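The deposited files hold raw UMI counts per gene and barcode for each of 4 libraries, which the authors made with Cell Ranger 7.0.0, per the submitters' processing notes. The notes name hg38 while the files' 25399 gene identifiers are rat Ensembl identifiers, and the rat build was not given in the sources used here. No coordinates are printed for that reason. Counts were summed per library and class and fitted with edgeR 4.0.16 (quasi-likelihood F test, TMM, filterByExpr, robust) under R 4.3.3. Adjusted p-values are Benjamini-Hochberg values across all genes tested, with calls at an adjusted p under 0.05. METH was compared with saline over 2 libraries each. Classes were compared with the library as a block, also for the class-by-METH term. The SE is the log2 fold change over the square root of F. CPM is the count per 1000000 UMIs of the class sum. Doublets were kept in the main analysis. As an alternative, the barcodes with the highest Scrublet scores were left out, which removed 17, 4, 13 and 4 NP nuclei. The code was tested on simulated data. DESeq2 1.42.0 was the other tool.

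Named genes were, for the classes, the 20 with the largest fold among those higher than in each class with at least 20 CPM in NP nuclei and the 12 lowest, and, for METH, the 8 with the smallest p in each direction, without placeholder names. List members were named if called, up to 4 by p, and otherwise the 2 with the smallest p. The members and lists were chosen with earlier results of these data known. Some genes that this rule names are not reported here.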

Additional observations from a re-analysis of the deposited data

How the results depend on the processing

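TMM was replaced by upper-quartile factors, edgeR by DESeq2, and the filters on counts, genes per nucleus, panel UMIs, doublets and other-cell markers were changed in turn. The count of genes called between METH and saline (0) became 1 at 5 or more panel UMIs, 3 with the replicate number as a block (replicate block: Cst3, Man1a1 and Pld5), and 1 to 43 when a library was left out. Same-numbered deviations had a correlation of 0.0054. With 2 libraries per group this is a single value, so it cannot tell whether the numbers mark a shared day or batch. The 269 genes higher than in each class became 164 to 287 when a library was left out. The count of class-by-METH calls (0) became 1 with DESeq2, 1 without robust estimation, 2 at 5 or more panel UMIs, and 0 to 21 when a library was left out. The share difference ranged from -0.491 to 1.19 points when a library was left out. Of 42 genes named for METH, 11 changed sign somewhere. At 5 or more panel UMIs the log2 differences were 0.44 for Nr4a1, -0.093 for Trabd2b, -0.095 for Vwc2l, -0.066 for Lypd1, -0.13 for Fezf2 and -0.17 for Tle4. With equal numbers of nuclei they were -0.090 for Trabd2b and -0.015 for Tle4. Nr4a1 was at 0.082 with 2 or more panel UMIs and 0.22 without doublets, where Mbp was at -0.26. With a library left out, ranges were -0.49 to 0.34 for Nr4a1, -0.41 to 0.92 for Trabd2b, -0.17 to 0.33 for Vwc2l, -0.17 to 1.07 for Htr4, -0.045 to 0.57 for Lypd1, -0.24 to 1.06 for Fezf2, -0.48 to 0.079 for Etv1, -0.32 to 0.57 for Tle4, -0.041 to 2.11 for Grik1 and -0.15 to 1.36 for Kcnip1. In the class comparison, Sla2 was at -0.032 without the filter, -0.0060 without doublets, -0.0039 at 2 or more panel UMIs and -0.11 to 0.086 with a library left out, where Itga8 ranged from -0.31 to 0.053, Pdgfra from -0.094 to 0.86 and Slco1a4 from -0.0042 to 1.57. None of these 4 was called. Of 116 genes named there, 13 lost a call somewhere, among them Htr2a, Gap43, Nr4a1, Nr3c1 and Sgk1. The causes were not tested. The NP sum of saline replicate 1 had 233924 UMIs, so 3 counts there are 12.8 CPM.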
